A study of Mus musculus with 60 samples.

Results

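The colony-stimulating factors are the growth factors on which macrophages and granulocytes depend, and they are described here together with their receptors in mouse macrophages and injured arteries. The family was taken as the 7 genes Csf1, Csf1r, Csf2, Csf2ra, Csf2rb, Csf3 and Csf3r, of 19057 genes named by the probes of the array. They were read by 15 of the array's 45281 probes, namely every probe annotated to 1 of these symbols and to no other gene. The study asked how high-density lipoprotein (HDL), the lipoprotein particle that carries cholesterol away from tissues, acts on inflammatory macrophages, and whether the stress-induced transcription factor Atf3 takes part. It measured messenger RNA on Illumina BeadChips, 1 array per sample, in 60 samples that fell into 20 groups of 3.

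All groups were of the C57BL/6 strain. Macrophages were grown from the bone marrow of mice 6 to 8 weeks old, in 40 ng/ml M-CSF for 6 days, so that every macrophage group, controls included, had been raised in the protein that Csf1 encodes. The first macrophage experiment held 12 wild-type samples: unstimulated control cells, cells given the Toll-like receptor 9 agonist CpG DNA (100 nM, 4 h), cells given HDL (2 mg/ml, 6 h before the ligand), and cells given HDL and then CpG. The second held 36 samples, wild-type and labelled Atf3-deficient, each as control, HDL, CpG, P3C (a lipopeptide stimulus of Toll-like receptor 2, 50 ng/ml, 4 h), HDL with CpG, and HDL with P3C. The artery experiment held 12 samples of carotid artery from male mice about 12 weeks old, wild-type or labelled Atf3-deficient, injured and treated 3 h later with HDL (20 mg/kg) or saline (PBS), and the labels give 12 h as the length of stimulation. Nothing in the labels ties the samples of a group to different animals or cultures, so the p-values measure the spread between these samples, which may be technical. With 3 arrays per group, the number of arrays limits the precision of each value.

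Each of the factors acts through a receptor on blood-forming and myeloid cells. M-CSF, the product of Csf1, binds the receptor tyrosine kinase encoded by Csf1r and keeps macrophages alive, dividing and differentiated. GM-CSF, the product of Csf2, binds a specific alpha chain from Csf2ra that pairs with the beta chain from Csf2rb, while G-CSF, the product of Csf3, acts through the homodimeric receptor from Csf3r, best known for driving neutrophil production. Stimulated macrophages, fibroblasts and endothelial cells are known sources of Csf1, Csf2 and Csf3.

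Signals are given as log2 of the background-corrected and quantile-normalised signal, and a difference of 1 on this scale is a doubling of signal. A probe counted as detected on an array when the deposited detection p-value was below 0.01, and a probe detected on none of a group's 3 arrays is called not above background in that group. A probe was tested where it was detected on at least 3 arrays of the experiment, and it passed at an adjusted p below 0.05 (limma, Benjamini-Hochberg over all probes tested). Where 1 of the groups compared was not above background, the change is also given as a bound, the bright group's level over that of the dim group or of the dimmest detected probes, whichever was higher. Levels are compared between conditions for 1 probe and not between probes.

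The arrays detected 12209 to 15323 probes in the first experiment, 11951 to 14785 in the second and 9266 to 15397 in the artery experiment. The probe for Atf3 was detected on every array, and in the second experiment it lay between 11.65 and 13.38 in the 18 samples labelled Atf3-deficient and between 10.61 and 12.20 in the 18 wild-type samples. Atf3 signal was therefore higher under the deficiency label, by 0.70 to 1.47 in the 6 conditions, each of which passed. Where this probe lies relative to the targeted part of the gene is not given in the sources used here, so it does not settle the label, and the groups are called by their label. Erdr1, a transcript that separated the labels, was detected on all 18 wild-type arrays and on 0 of the 18 labelled Atf3-deficient arrays of the second experiment.

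The identity of the macrophages rested on 11 of 11 macrophage markers with a probe, which were detected. Of 11 neutrophil markers with a probe, Mpo, Elane, Ngp, Retnlg, Cxcr2, Mmp8 and Cebpe were not detected on any macrophage array, while 4 were detected on 6 or more of the 12 arrays in the first experiment and 1 on 18 or more of the 36 in the second. A list of 5 fibroblast genes, 2 of which (Col3a1 and Pdgfra) were not detected, was summed on the linear signal scale in the second experiment. The sum was 418.5 to 959.7 in the labelled Atf3-deficient groups and 112 to 286.3 in the wild-type groups. The sum of 5 smooth muscle genes, of which Myh11, Tagln and Cnn1 were not detected, was also higher under the deficiency label, at 613.7 to 928.1 against 337.3 to 389.8 in control cells, and did not overlap between the labels in any of the 6 conditions. In control cells the neutrophil sum was lower under that label (84.18 to 93.35 against 161.7 to 207), as was the sum of 5 endothelial genes, Cdh5 and Kdr not detected (134.6 to 175 against 259 to 304.6). On 18 or more of the 36 arrays, 2 of the fibroblast genes, 1 of the smooth muscle genes and 1 of the endothelial genes were detected. Each of these sums thus rests on few transcripts. The part of these sums in the genotype differences below was not tested.

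Of the 15 probes, 8 probes for 5 genes were tested in the first experiment, and 10 probes for 6 genes in the second and in the arteries. Csf3 was not tested anywhere. Its probe ILMN_1217948 was detected on 1 of 60 arrays, in the first experiment, and its probe ILMN_2744018 on 1, in the second. Of the 3 Csf2rb probes, ILMN_1236070 was detected on 1 array and ILMN_1253312 on 2, and neither was tested, so that Csf2rb rests on ILMN_2688262. The Csf3r probe ILMN_2746501 was detected on no array. The Csf2 probe was detected on 0 of 12 arrays in the first experiment, 8 of 36 in the second and 4 of 12 in the arteries.

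In RefSeq annotation of the mouse genome build GRCm38.p6, Csf1 lies at chr3:107741048-107760469, Csf2 at chr11:54247270-54249899, Csf2ra at chr19:61217191-61228461, Csf2rb at chr15:78325800-78351001, Csf3 at chr11:98700183-98703631 and Csf3r at chr4:126023441-126044975. The positions of the probes within these genes are not used here. The promoter windows of 4 members, from 250 bases before to 50 bases after an annotated start, are shown. Their signals moved after stimulation, and Atf3 is a factor of the ATF and CREB group. No window is shown for Csf1r and Csf2rb, whose signals also moved, or for Csf3. The 4 windows are thus not those of every member that moved. The 4 windows were searched on both strands for the CRE TGACGTCA, the AP-1 site TGANTCA, the PU.1 core GAGGAA, the C/EBP-type site TTGCNNAA and the NF-kB consensus. Capitals mark the matches. The starts used for Csf1 and Csf2 were the outer end of the gene as annotated, while those for Csf2ra and Csf3r lay inside it. The Csf3r window lies wholly within the gene, which begins at 126023441. The windows are RefSeq's, on GRCm38.p6, and run 5′ to 3′ along the gene's strand: Csf1 at chr3:107760420-107760719 (minus strand), Csf2 at chr11:54249850-54250149 (minus strand), Csf2ra at chr19:61228369-61228668 (minus strand) and Csf3r at chr4:126024409-126024708 (plus strand).
Csf1: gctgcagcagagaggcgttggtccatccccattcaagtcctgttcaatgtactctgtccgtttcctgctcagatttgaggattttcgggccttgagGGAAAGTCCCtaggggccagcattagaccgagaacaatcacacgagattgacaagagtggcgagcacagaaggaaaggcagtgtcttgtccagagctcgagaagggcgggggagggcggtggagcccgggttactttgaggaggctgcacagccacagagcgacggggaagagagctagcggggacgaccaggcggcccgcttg
Csf2: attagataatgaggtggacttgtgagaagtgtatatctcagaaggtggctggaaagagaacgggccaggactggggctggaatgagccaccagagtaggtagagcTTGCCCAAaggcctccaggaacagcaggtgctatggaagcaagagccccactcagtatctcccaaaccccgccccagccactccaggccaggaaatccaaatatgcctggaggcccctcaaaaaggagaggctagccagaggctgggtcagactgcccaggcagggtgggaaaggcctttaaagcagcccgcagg
Csf2ra: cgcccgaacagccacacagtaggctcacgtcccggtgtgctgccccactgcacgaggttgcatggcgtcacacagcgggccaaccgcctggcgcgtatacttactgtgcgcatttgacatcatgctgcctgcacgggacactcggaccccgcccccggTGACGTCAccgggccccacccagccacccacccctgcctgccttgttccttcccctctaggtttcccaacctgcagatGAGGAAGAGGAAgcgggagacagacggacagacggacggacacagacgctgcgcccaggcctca
Csf3r: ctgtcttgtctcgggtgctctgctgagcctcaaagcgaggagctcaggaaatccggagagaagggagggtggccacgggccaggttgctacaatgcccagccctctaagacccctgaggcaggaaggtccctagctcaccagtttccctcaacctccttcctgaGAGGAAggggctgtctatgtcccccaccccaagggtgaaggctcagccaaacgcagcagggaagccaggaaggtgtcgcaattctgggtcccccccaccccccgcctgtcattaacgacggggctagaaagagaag

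The Csf1 window held 1 match to the NF-kB consensus, read on the opposite strand and starting 154 bases before the start, a match present in 4.51% of 32851 promoter windows of the same length. The Csf2 window held 1 C/EBP-type match 145 bases before the start, a motif found in 10.8% of windows. The Csf2ra window held the CRE, 92 bases before the start, which 1.79% of windows contain, and 2 adjoining PU.1 cores, found in 28.3% of windows. The Csf3r window held 1 PU.1 core 86 bases before that window's start, inside the gene as annotated. No AP-1 match was found in these 4 windows, against 7.81% of all windows. A match describes letters in a window and is not evidence that a factor binds there.

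Csf2, which encodes GM-CSF, separated the genotype labels when cells were given HDL together with a ligand. In the second experiment's wild-type cells the probe was not above background in control cells (4.29, 4.36 and 4.45), under CpG (4.70, 4.76 and 4.98), under HDL (4.36, 4.44 and 4.66) or under HDL with P3C (4.47, 4.52 and 4.55). It was detected on 1 wild-type array under HDL with CpG (5.46, against 4.68 and 4.72) and on 1 under P3C (5.42, against 4.81 and 5.08). In cells labelled Atf3-deficient the probe was detected on all 3 arrays under HDL with CpG (5.86, 6.20 and 6.57) and on all 3 under HDL with P3C (5.58, 5.73 and 6.27). It was not above background in the other 4 labelled Atf3-deficient groups, whose values ran from 4.40 to 5.12. The 6 arrays of labelled Atf3-deficient cells given HDL and a ligand were thus the highest of all 36, with no overlap with any other group.

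**Figure D1:**
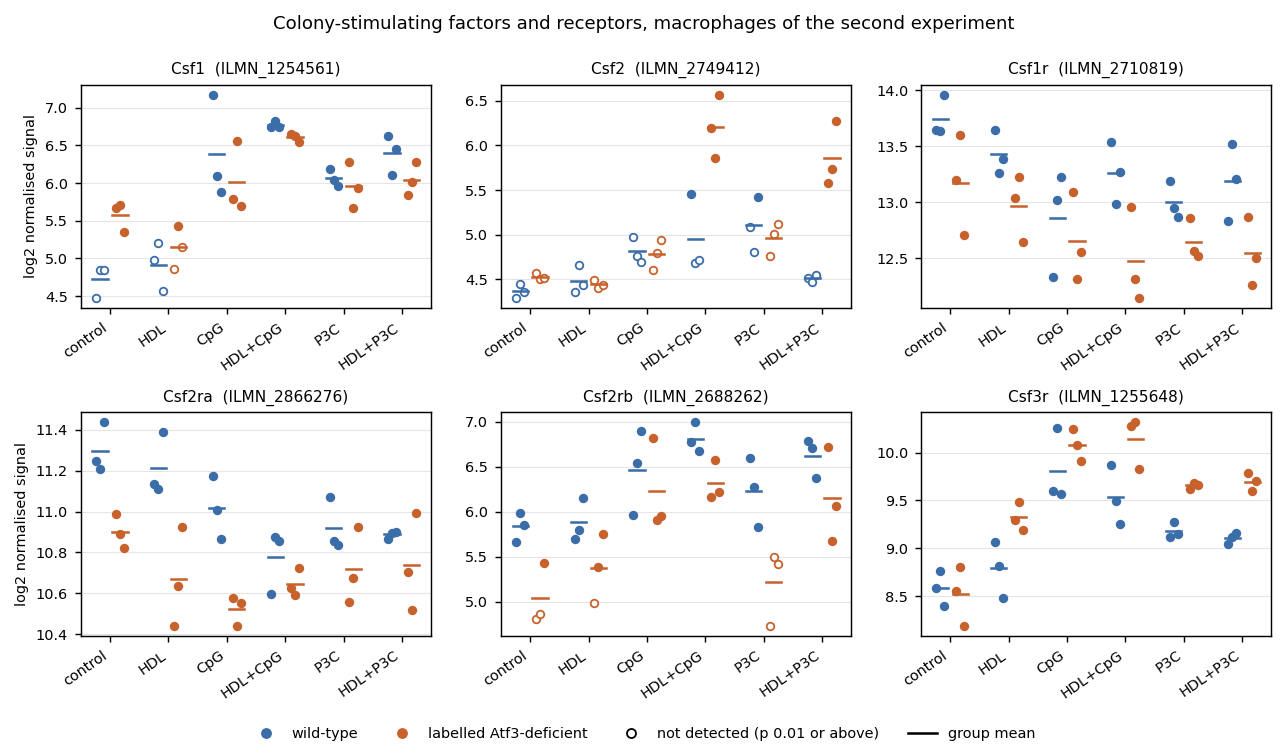
Log2 normalised signal of 1 probe for each of 6 members in the second macrophage experiment, by treatment, with wild-type samples in blue and samples labelled Atf3-deficient in orange. Each point is 1 array (open where not detected) and each bar a group mean of 3. The Csf2 panel shows the labelled Atf3-deficient cells given HDL with CpG (5.86 to 6.57) and HDL with P3C (5.58 to 6.27) above all other groups.

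In labelled Atf3-deficient cells, Csf2 signal rose by 1.43 (SE 0.19, adjusted p = 1.502e-06) from CpG alone to HDL with CpG, at least 1.68-fold. It rose by 0.90 (SE 0.19, adjusted p = 0.0009794) from P3C alone to HDL with P3C, at least 1.28-fold. In wild-type cells the same step with CpG was 0.14 (95% interval -0.25 to 0.52, adjusted p = 0.6798), and both groups were near background. The wild-type step with P3C ran the other way, with a fall of 0.59 (SE 0.19, adjusted p = 0.03176) from a P3C group detected on 1 of 3 arrays to a group not above background. This last result was lost in 9 of 15 alternative settings, 5 of them omissions of a single array, which gave -0.74 to -0.43 (adjusted p up to 0.199).

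The difference between genotype labels in these steps was itself tested. It was 1.29 (SE 0.27, adjusted p = 0.02347) for HDL under CpG and 1.49 (SE 0.27, adjusted p = 0.009441) for HDL under P3C, in each case with 3 of the 4 groups at or near background, so that the size is that of the normalised signal and not of the transcript. Csf2 was the 1 member probe of 10 that passed in each of these tests, in which 0.249% and 0.23% of all 16487 probes tested passed. The probe was detected on 8 of 36 arrays, among them all 3 of each labelled Atf3-deficient group given HDL and a ligand. It met the filter of 3 arrays only through these groups, which are the ones then called high. Both differences were kept with no detection filter. The first value was lost in 10 of 21 alternative settings (adjusted p up to 0.7907) and the second in 2 of 21 (adjusted p up to 0.2092). The 10 included omission of any 1 of 6 arrays, 3 of them wild-type (values of 1.11 to 1.54 over all 12 omissions, adjusted p up to 0.09563), and omission of the arrays with the fewest detected probes left 1.21 (adjusted p = 0.07709).

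Directly compared, Csf2 signal was higher in labelled Atf3-deficient than in wild-type cells by 1.25 (SE 0.19, adjusted p = 1.962e-05) under HDL with CpG. Under HDL with P3C it was higher by 1.34 (SE 0.19, adjusted p = 6.26e-06), at least 1.49-fold. Both results held in all 15 alternative settings, among them no detection filter. The labelled Atf3-deficient groups compared here are those through which the probe met the filter, so these tests were not independent of that selection. The label difference did not pass in control (0.17, 95% interval -0.22 to 0.55), CpG (-0.04, -0.42 to 0.35) or P3C (-0.14, -0.53 to 0.24) cells, in which the probe was detected on 1 of 18 arrays.

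The arrays were run on chips of 6 positions, and groups were spread over several chips. Within the chips that held both groups, Csf2 signal in labelled Atf3-deficient cells differed between HDL with CpG and CpG by 1.25 on chip 3, and between HDL with P3C and P3C by 0.85 on chip 4 and 1.15 on chip 6. The label difference under HDL with P3C was 1.05 on chip 2 and 1.71 on chip 6. Under HDL with CpG it was 0.40 on chip 3, which held the highest wild-type array (5.46) and the lowest labelled Atf3-deficient array (5.86) of these groups. The fibroblast gene sum was 479.5 to 884.6 in the labelled Atf3-deficient HDL with CpG arrays and 418.5 to 864.9 in those given CpG alone.

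Other marker sums also differed at these steps. In labelled Atf3-deficient cells the endothelial sum was 83.05 to 124.2 under CpG and 218.1 to 274.7 under HDL with CpG, and 98.26 to 146.9 under P3C and 220.9 or higher under HDL with P3C. The smooth muscle sum was 602 to 688.8 under CpG and 1079 to 1343 under HDL with CpG, while with P3C it overlapped (696.5 to 827 and 662.1 to 903.4 with HDL). Wild-type cells, in which no rise of Csf2 passed at these steps, had endothelial sums of 146.2 to 165.7 under CpG and 231.7 to 312.2 with HDL added, and 130.1 to 141.9 under P3C and 252.3 to 310.6 with HDL added. With HDL alone, where Csf2 was not above background under either label, the endothelial sum was also higher than in control cells. It was 416.9 to 444 against 134.6 to 175 under the deficiency label, and 558.6 to 678.7 against 259 to 304.6 in wild-type cells. The smooth muscle sum with HDL alone under the deficiency label was 1378 to 1733, against 613.7 to 928.1 in control cells. The part of these sums in the Csf2 result was not tested.

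P3C alone raised Csf2 in wild-type cells, by 0.74 (SE 0.19, adjusted p = 0.001909) on the normalised scale, from a group not above background to a group detected on 1 of 3 arrays, with a bound on the fold that rounds to equality. CpG gave 0.45 (adjusted p = 0.05266). P3C gave 0.43 in labelled Atf3-deficient cells (adjusted p = 0.06592). In the first experiment Csf2 lay between 4.15 and 4.79 on all 12 arrays and was not above background in any group.

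Csf1, which encodes M-CSF, rose with both Toll-like receptor ligands in the second experiment's wild-type cells. It was not above background in control cells (4.48, 4.85 and 4.85) or under HDL (4.57, 4.98 and 5.21). It was detected on every wild-type array given a ligand, at 5.88, 6.10 and 7.17 under CpG, 5.96, 6.05 and 6.19 under P3C, 6.74, 6.75 and 6.83 under HDL with CpG and 6.11, 6.45 and 6.63 under HDL with P3C. No array given a ligand overlapped the control or HDL arrays. Csf1 rose by 1.66 with CpG (SE 0.25, adjusted p = 1.779e-06), at least 2.43-fold, and by 1.34 with P3C (SE 0.25, adjusted p = 4.385e-05), at least 1.95-fold, and both rises held in all 15 alternative settings.

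In labelled Atf3-deficient cells Csf1 was already detected on all control arrays (5.36, 5.67 and 5.71), and the label difference in control cells was 0.85 (SE 0.25, adjusted p = 0.02008), at least 1.39-fold. This difference passed in 9 of 15 alternative settings and was lost without wild-type control replicate 1 and without labelled Atf3-deficient control replicate 1 or 2 (0.73 to 0.96 over single omissions, adjusted p up to 0.1139). On chip 1 the difference was 1.21 and on chip 2 it was 0.51. The labelled Atf3-deficient CpG arrays read 5.69, 5.79 and 6.55, and the CpG change was 0.44 (95% interval -0.07 to 0.94, adjusted p = 0.1509). The label difference in the CpG change was -1.22 (adjusted p = 0.06265) and in the P3C change -0.95 (adjusted p = 0.2499), neither of which passed. Without the arrays with the fewest detected probes, a setting chosen after seeing the data, they were -1.10 (adjusted p = 0.03033) and -0.95 (adjusted p = 0.03009).

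HDL before CpG left Csf1 at 6.54, 6.62 and 6.66 in labelled Atf3-deficient cells, a change of 0.59 from CpG alone (adjusted p = 0.105), and gave 0.39 in wild-type cells (adjusted p = 0.3034). Without the arrays with the fewest detected probes these values were 0.86 (adjusted p = 0.001618) and 0.79 (adjusted p = 0.004419). The arrays left out were wild-type CpG replicate 1, which at 7.17 had the highest Csf1 signal of its group, and labelled Atf3-deficient CpG replicate 2, at 6.55 also the highest of its group.

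The first experiment did not show the same induction of Csf1. The probe was detected on all 12 arrays, at 6.41, 6.46 and 6.83 in control cells and 6.15, 6.65 and 6.67 under CpG. The change was -0.08 (95% interval -0.64 to 0.48, adjusted p = 0.8611). HDL with CpG gave the 2 highest arrays (7.08 and 7.77, beside 6.84), and its change from CpG alone was 0.73 (adjusted p = 0.1275). Whether the CpG changes of the 2 experiments differ was not tested, since the experiments were normalised separately. With that limit, fibroblast and smooth muscle sums were higher in the first experiment's control cells. All 5 fibroblast genes were detected there on 6 or more of the 12 arrays. Their sum was 984.3 to 1456, against 123.8 to 155.2 in the second experiment's wild-type control cells. The smooth muscle sums were 4341 to 7234 and 337.3 to 389.8. The part of these sums in the Csf1 levels was not tested.

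**Figure D2:**
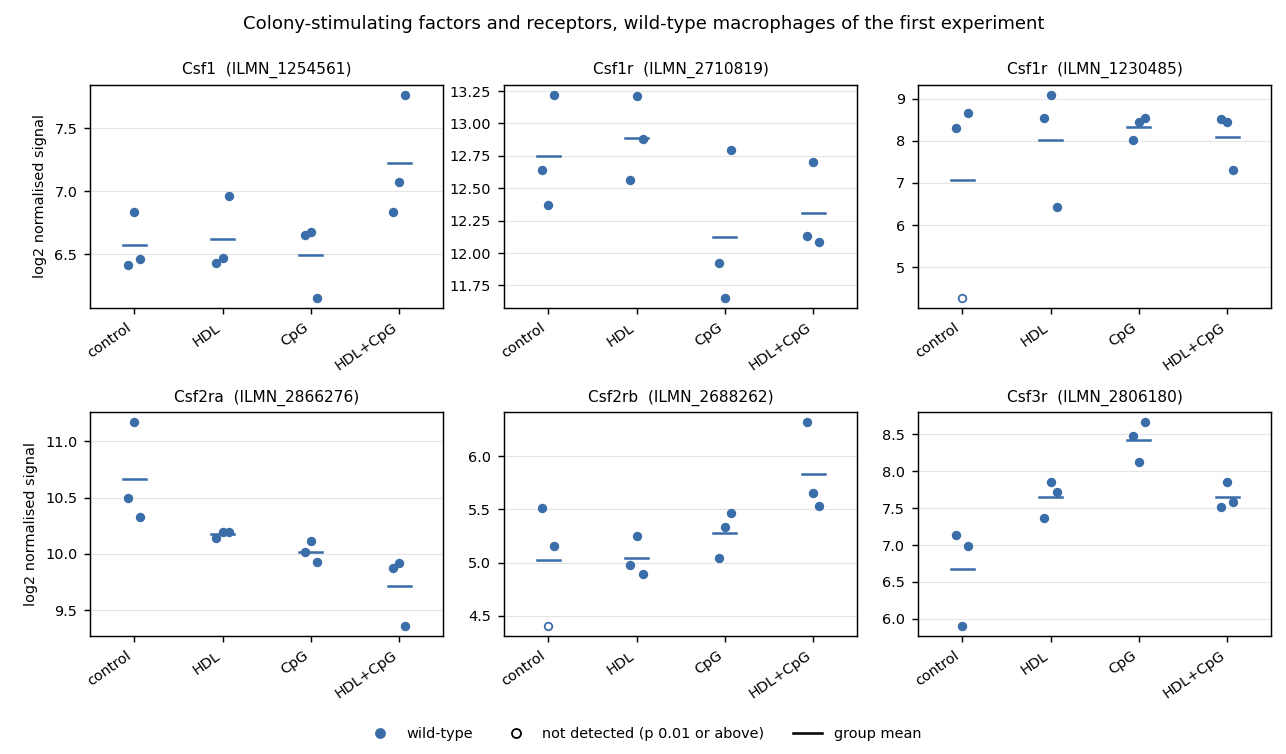
Log2 normalised signal of 6 member probes in the 12 wild-type samples of the first macrophage experiment, by treatment. Each point is 1 array (open where not detected) and each bar a group mean of 3. The Csf3r probe ILMN_2806180 lies at 8.13 to 8.66 under CpG, above its control arrays at 5.91 to 7.14, while Csf1 overlaps between control and CpG.

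Csf1r, the M-CSF receptor and a defining gene of macrophages, lies at chr18:61105572-61131139 (GRCm38.p6) and was detected by probe ILMN_2710819 on all 48 macrophage arrays. In the second experiment's wild-type cells the signal was 13.63, 13.65 and 13.96 in control cells, 12.34, 13.02 and 13.23 under CpG and 12.87, 12.95 and 13.19 under P3C. Neither ligand group overlapped the control group. The signal fell by 0.89 (SE 0.25, adjusted p = 0.004574) with CpG and by 0.74 (SE 0.25, adjusted p = 0.01679) with P3C.

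The CpG result was lost without wild-type CpG replicate 1, the array at 12.34 and the one with the fewest detected probes of the experiment (11951), and with median scaling. Without that array it was -0.62 (adjusted p = 0.05085). The P3C result was lost with median scaling and without P3C replicate 3 or control replicate 3 (adjusted p up to 0.07544 in single omissions). Under the deficiency label the control arrays read 12.71, 13.20 and 13.60, and changes of -0.51 (adjusted p = 0.09659) with CpG and -0.52 (adjusted p = 0.09434) with P3C did not pass. In the first experiment CpG gave -0.62 (95% interval -1.32 to 0.07, adjusted p = 0.1718).

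The other Csf1r probe, ILMN_1230485, followed the first only in part, with a correlation between the probes of 0.537 over the 36 arrays, which share the treatments. In wild-type cells it read 9.18, 10.22 and 10.35 in control cells and 6.80, 9.69 and 9.72 under CpG, so that 1 array set the difference of -1.18 (SE 0.46, adjusted p = 0.03815). Without that array, again CpG replicate 1, the change was -0.21 (adjusted p = 0.6403). In the first experiment 1 control array was likewise apart, at 4.27 and not detected, against 8.30 and 8.65. That array had the fewest detected probes of its experiment (12209). Under HDL with CpG, the first probe was lower in labelled Atf3-deficient cells than in wild-type cells (12.15, 12.32 and 12.96 against 12.99, 13.27 and 13.54), by a difference of -0.79 (SE 0.25, adjusted p = 0.04129) that held in 8 of 15 settings and in 2 of 6 single omissions (-1.03 to -0.63).

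Csf2ra, the specific chain of the GM-CSF receptor, moved little in the macrophages, and its changes with a ligand against control that passed were falls. In the first experiment its signal was 10.33, 10.50 and 11.16 in control cells and 9.93, 10.02 and 10.11 under CpG, with no overlap, and it fell by 0.65 (SE 0.22, adjusted p = 0.04508), a result kept in 7 of 15 settings and lost without any 1 of 5 arrays (-0.81 to -0.40, adjusted p up to 0.1401). In the second experiment's wild-type cells the control arrays read 11.21, 11.25 and 11.44. P3C lowered them to 10.83, 10.86 and 11.07, a fall of 0.38 (SE 0.13, adjusted p = 0.02274), and CpG gave -0.28 (adjusted p = 0.0868). The P3C fall was lost without P3C replicate 2 or 3 or control replicate 3 (-0.45 to -0.31 over single omissions, adjusted p up to 0.1065).

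Csf2ra was lower under the deficiency label in 2 of 6 conditions, CpG and HDL. The labelled Atf3-deficient arrays read 10.44, 10.55 and 10.58 under CpG against 10.87, 11.01 and 11.18 in wild-type cells, a difference of -0.49 (SE 0.13, adjusted p = 0.009166). Under HDL they read 10.44, 10.64 and 10.93 against 11.11, 11.13 and 11.39, a difference of -0.54 (SE 0.13, adjusted p = 0.007388). The groups did not overlap in either condition. In control cells the difference was -0.40 (adjusted p = 0.05509), also without overlap (10.82 to 10.99 against 11.21 to 11.44). It was -0.20 under P3C (adjusted p = 0.4164), -0.13 under HDL with CpG (adjusted p = 0.6648) and -0.15 under HDL with P3C (adjusted p = 0.5312), and in these conditions the groups overlapped. Within the labelled Atf3-deficient cells CpG lowered the signal by a fall of 0.38 (SE 0.13, adjusted p = 0.02141), which was lost in 4 of 15 settings, among them median scaling and omission of control replicate 1 or CpG replicate 2 (adjusted p up to 0.2002). The results under CpG and HDL were kept in 12 and 11 of 15 settings, and the former was lost without wild-type CpG replicate 1 (-0.41, adjusted p = 0.06079) and the latter without wild-type HDL replicate 3 or labelled Atf3-deficient HDL replicate 1 (adjusted p up to 0.08287).

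Csf2rb, the signalling beta chain, was read by 1 tested probe. A near-identical mouse paralog, Csf2rb2, exists, and which of the 2 transcripts each probe binds was not checked, so the attribution is uncertain. In labelled Atf3-deficient cells the probe was detected on 1 of 3 control arrays (4.81, 4.87 and 5.43) and on all CpG arrays (5.91, 5.95 and 6.82), and it rose by 1.19 (SE 0.28, adjusted p = 0.0007196), a result kept in all 15 settings. In wild-type cells it read 5.67, 5.86 and 5.99 in control cells and 5.97, 6.54 and 6.90 under CpG, a change of 0.63 (adjusted p = 0.06413). Control arrays under the deficiency label all lay below the wild-type ones, a difference that did not pass, while the CpG arrays overlapped. No label difference in the CpG or P3C change passed for this probe. P3C left it not above background in labelled Atf3-deficient cells (4.73, 5.42 and 5.50) while the wild-type arrays read 5.83, 6.27 and 6.60. That label difference was -1.02 (SE 0.28, adjusted p = 0.01542), at least 1.66-fold lower, and it was lost without replicate 1 of either group (adjusted p up to 0.1128).

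HDL before P3C took Csf2rb in labelled Atf3-deficient cells to 5.68, 6.06 and 6.72, a rise of 0.93 over P3C alone (SE 0.28, adjusted p = 0.02006), at least 1.57-fold, kept in 10 of 15 settings and lost without replicate 1 of either group (0.65 to 1.17 over single omissions). The same step in wild-type cells was 0.39 (adjusted p = 0.4031), and the label difference in this step did not pass. The probe for Csf2rb2 was lower under the deficiency label in control cells by a difference of -1.33 (SE 0.21, adjusted p = 2.286e-05). Csf2rb2 rose with HDL before CpG in both labels, by 0.69 (SE 0.21, adjusted p = 0.01816) in wild-type and 0.73 (SE 0.21, adjusted p = 0.01264) in labelled Atf3-deficient cells.

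Csf3r, the G-CSF receptor, rose by at least 1 probe in each of the 5 comparisons of a ligand with control. The probes ILMN_1255648 and ILMN_2806180 were detected on all 60 arrays and correlated at 0.925 over the 36 arrays of the second experiment. In the first experiment the former read 6.87, 7.59 and 8.16 in control cells and 8.38, 9.00 and 9.25 under CpG. It rose by 1.34 (SE 0.33, adjusted p = 0.01013) and the latter by 1.74 (SE 0.29, adjusted p = 0.0008654), with no overlap between groups for either probe. The former result was lost with median scaling (adjusted p = 0.0875). A dimmer probe, ILMN_1241302, was not above background in control cells and detected on all 3 CpG arrays, with a rise of 0.91 (adjusted p = 0.00336), at least 1.32-fold.

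Among wild-type cells in the second experiment, ILMN_1255648 read 8.40, 8.58 and 8.76 in control cells, 9.57, 9.60 and 10.25 under CpG and 9.12, 9.15 and 9.27 under P3C. The 3 groups did not overlap, and they ordered as control, P3C and CpG. Csf3r rose by 1.23 (SE 0.18, adjusted p = 1.926e-06) with CpG and by 0.60 (SE 0.18, adjusted p = 0.008144) with P3C. The P3C rise was lost with median scaling (adjusted p = 0.2549), and that of ILMN_2806180 (0.53, adjusted p = 0.03808) was kept in 7 of 14 settings (adjusted p up to 0.3861). The direct difference between CpG and P3C was 0.63 (SE 0.18), which did not pass over all probes (adjusted p = 0.1652).

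Under the deficiency label the same probe read 8.19, 8.55 and 8.81 in control cells, 9.91, 10.08 and 10.24 under CpG and 9.61, 9.67 and 9.69 under P3C. It rose by 1.56 (SE 0.18, adjusted p = 2.818e-08) with CpG and by 1.14 (SE 0.18, adjusted p = 6.745e-06) with P3C. All 4 tested Csf3r probes rose with CpG in these cells, ILMN_2806180 by 1.95 (SE 0.21, adjusted p = 4.125e-09), ILMN_2707409 by 1.28 (at least 1.75-fold) and ILMN_1241302 by 1.12 (at least 1.89-fold). The CpG rises of these 4 probes in labelled Atf3-deficient cells were kept in every alternative setting run. The neutrophil sum also rose with both ligands, from 161.7 to 207 in wild-type control cells to 408.4 to 493.3 under CpG and 345.9 to 469.4 under P3C. Under the deficiency label it went from 84.18 to 93.35 in control cells to 261.7 to 460.7 under CpG and 175.2 to 253.2 under P3C, and its part in the Csf3r result was not tested.

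**Figure D3:**
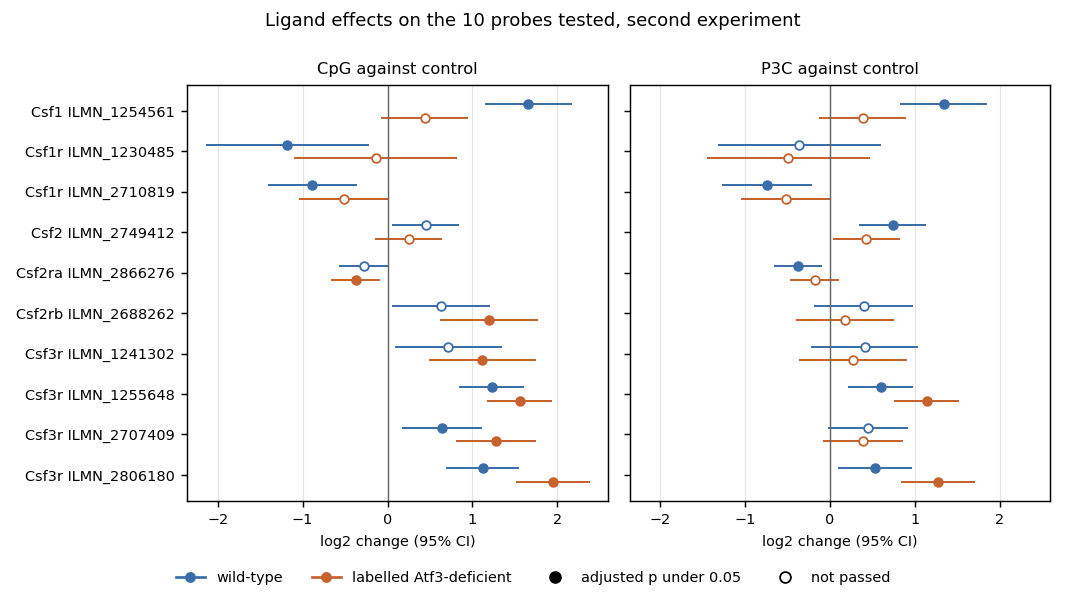
Log2 change with CpG (left) and P3C (right) against control for the 10 member probes tested in the second experiment. Points are fitted changes with 95% intervals, blue for wild-type and orange for labelled Atf3-deficient cells, filled where the adjusted p was below 0.05. The Csf3r probe ILMN_1255648 sits at 1.23 and 1.56 with CpG, to the right of zero, and Csf1r and Csf2ra sit to the left.

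Csf3r was higher under the deficiency label for 1 probe under CpG and for both bright probes under HDL with either ligand. Under CpG, ILMN_2806180 read 9.42, 9.72 and 9.79 in labelled Atf3-deficient cells and 8.76, 8.98 and 9.12 in wild-type cells, higher by 0.69 (SE 0.21, adjusted p = 0.01731), while ILMN_1255648 gave 0.27 (adjusted p = 0.3289). Under P3C alone no Csf3r probe passed, with 0.60 (adjusted p = 0.06168) and 0.47 (adjusted p = 0.1028) for these probes. Under HDL with P3C both bright probes were higher under the deficiency label, ILMN_1255648 by 0.59 (SE 0.18, adjusted p = 0.03097) and ILMN_2806180 by 0.73 (SE 0.21, adjusted p = 0.01783). Under HDL with CpG they were higher by 0.60 (adjusted p = 0.03218) and 0.68 (adjusted p = 0.03038). These 5 results were kept in 7 to 9 of the 14 or 15 settings each, and each was lost in 3 to 6 of its 6 single omissions (adjusted p up to 0.2695). In control cells the groups overlapped, and the label difference in the CpG change of ILMN_2806180 was 0.83 (adjusted p = 0.1626), which did not pass. The neutrophil sum, which rests on few transcripts, was lower under the deficiency label with HDL and a ligand. Under HDL with CpG it was 314.4 to 354.1 under the deficiency label and 562.1 to 628.8 in wild-type cells. Under HDL with P3C it was 205.2 to 237 and 428.4 to 606.2. Under CpG alone the sums overlapped (261.7 to 460.7 and 408.4 to 493.3). The part of this sum in the Csf3r label differences was not tested.

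HDL alone raised Csf3r in labelled Atf3-deficient cells, where ILMN_1255648 read 9.19, 9.30 and 9.48 against 8.19, 8.55 and 8.81 in control cells, a rise of 0.81 (SE 0.18, adjusted p = 0.00155) that was lost with median scaling (adjusted p = 0.1666). For ILMN_2806180 the rise was 0.58 (adjusted p = 0.04969), lost in 11 of 14 settings. The neutrophil sum was 99.12 to 109.4 with HDL in these cells, and its part in the Csf3r rise was not tested. Wild-type cells in the second experiment given HDL read 8.48, 8.82 and 9.07, which overlapped the control arrays. The label difference in the HDL change was 0.60 (adjusted p = 0.5689) and did not pass. In the first experiment HDL gave 0.87 (adjusted p = 0.1798) for this probe and 0.97 (adjusted p = 0.08187) for ILMN_2806180.

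Counted over the family, CpG moved 4 of the 8 probes tested in the first experiment, where 28% of all 15917 probes tested passed. The 3 that rose stand beside 12.2% of all probes that rose and the 1 that fell beside 15.7% that fell, and the members' median change was 0.58, beside -0.04 for all probes tested. Among wild-type cells in the second experiment CpG moved 6 of 10 probes (45.7% of all 16487 probes passed), 4 up (20.3%) and 2 down (25.4%), with medians of 0.64 and -0.05. P3C moved 6 of 10 (44.3%), 4 up (20.5%) and 2 down (23.8%), with medians of 0.43 and -0.03. Cells labelled Atf3-deficient showed 6 of 10 with CpG (46.4%), 5 up (20.5%) and 1 down (25.9%), with medians of 0.78 and -0.05. With P3C they showed 2 of 10 (44%), 2 up (20.2%) and 0 down (23.7%), with medians of 0.33 and -0.04. Several of the rising probes read the same gene, Csf3r, so the probes are not independent, and these counts set nothing particular to the family against the large share of all probes that moved.

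CpG and P3C were also compared directly. Here and below, shares of all probes are at the adjusted threshold, and no such share is given at an unadjusted p. Member counts at an unadjusted p therefore cannot be set against them. In wild-type cells 0 of 10 probes passed in limma (2 at an unadjusted p below 0.05), where 0.497% of all probes passed. Among cells labelled Atf3-deficient 1 passed, the Csf3r probe ILMN_2707409, higher under CpG by 0.89 (adjusted p = 0.04256) and at least 1.44-fold, where 1.19% of all probes passed, and it was lost in 10 of 14 settings.

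HDL alone passed for 0 of 8 member probes in the first experiment (3 at an unadjusted p below 0.05, where 5.54% of all probes passed in limma) and for 0 of 10 in the second experiment's wild-type cells (0 unadjusted, 11.7%). It passed in labelled Atf3-deficient cells for 2 of 10, both Csf3r, where 18.8% of all probes passed. HDL before CpG passed for 0 of 8 in the first experiment (2 unadjusted, 6.99%), for 0 of 10 in wild-type cells of the second (0 unadjusted, 17.6%) and for 1 of 10, Csf2, in labelled Atf3-deficient cells (15.7%). HDL before P3C passed for 1 of 10 in wild-type cells, Csf2 (14.9%), and for 2 of 10, Csf2 and Csf2rb, in labelled Atf3-deficient cells (14.7%).

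**Figure D4:**
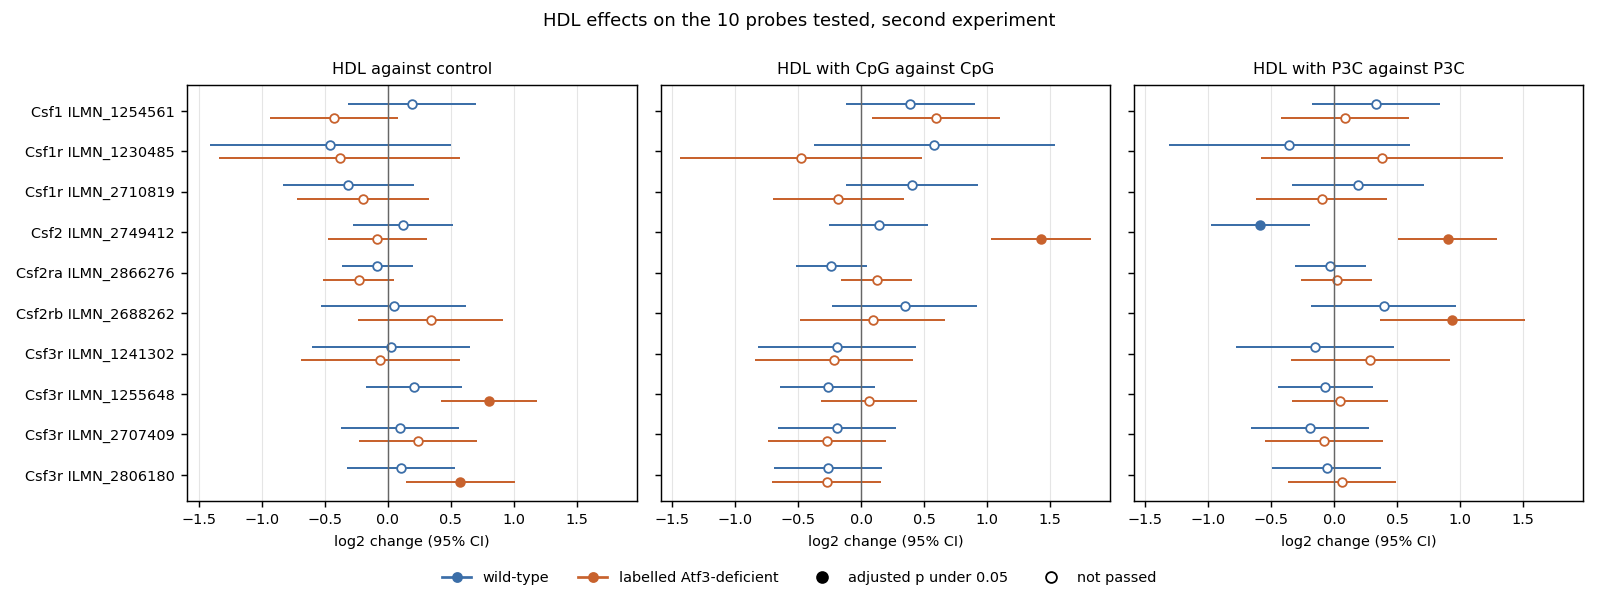
Log2 change with HDL alone against control, with HDL before CpG against CpG, and with HDL before P3C against P3C, for the 10 member probes tested in the second experiment. Points are fitted changes with 95% intervals, blue for wild-type and orange for labelled Atf3-deficient cells, filled where the adjusted p was below 0.05. Csf2 stands at 1.43 and 0.90 in labelled Atf3-deficient cells in the middle and right panels, against 0.14 and -0.59 in wild-type cells.

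The change that HDL made to the ligand response, beyond its effect on control cells, passed for Csf2 in labelled Atf3-deficient cells, at 1.51 (SE 0.27, adjusted p = 0.0007957) for CpG and 0.98 (SE 0.27, adjusted p = 0.03457) for P3C, where 3.61% and 3.5% of all probes passed. The former held in all 21 settings and the latter in 8 of 21. The probe met the detection filter only through the labelled Atf3-deficient groups given HDL and a ligand. No member passed in wild-type cells, where limma gave 0 of 8 for CpG in the first experiment (2 at an unadjusted p below 0.05, 0.616% of all probes) and 0 of 10 in the second for CpG (0 unadjusted, 3.23%) and P3C (1 unadjusted, 2.86%). The genotype labels differed in 1 of 10 member probes in control cells (Csf1), where 10.7% of all probes passed, 2 under CpG (19.2%), 1 under P3C (10.1%) and 1 under HDL (8.18%). They differed in 4 under HDL with CpG (10%) and 3 under HDL with P3C (12%). Tested as a difference between labels in the change itself, limma passed 0 of 10 member probes for CpG (2 at an unadjusted p below 0.05, where 1.95% of all probes passed), 0 for P3C (3 unadjusted, 1.51%) and 0 for HDL (1 unadjusted, 0.873%).

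Genes that carry the signals of these receptors moved in both directions after stimulation. Of 20 listed signalling genes, 14 were tested, and among wild-type cells in the second experiment 6 rose and 3 fell with CpG, as 6 rose and 3 fell with P3C. Over all probes 20.3% rose and 25.4% fell with CpG, and 20.5% and 23.8% with P3C. The list's median was 0.41 with CpG, beside -0.05 for all probes. Jak2, the kinase bound to the GM-CSF and G-CSF receptors, rose by 2.92 (SE 0.17, adjusted p = 5.397e-15) with CpG in wild-type cells and by 2.63 (SE 0.20, adjusted p = 1.604e-06) in the first experiment. Sos1, an exchange factor that activates Ras, rose by 2.89 (SE 0.22, adjusted p = 5.606e-12) with CpG in labelled Atf3-deficient cells, at least 5.42-fold.

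Of 11 listed feedback and response genes, 9 were tested in the second experiment, and 4 rose and 3 fell with CpG in wild-type cells, beside 20.3% and 25.4% of all probes. Socs3, which inhibits signalling from the G-CSF receptor, rose by 7.13 (SE 0.39, adjusted p = 1.503e-15) with CpG and by 6.53 (SE 0.39, adjusted p = 1.21e-14) with P3C in wild-type cells, and by 6.33 (SE 0.16, adjusted p = 7.463e-10) with CpG in the first experiment. Ccnd1, the cyclin D1 gene through which M-CSF is known to promote division, fell by 2.81 (SE 0.17, adjusted p = 2.622e-07) with CpG in the first experiment. With HDL alone Ccnd1 fell by 2.88 (SE 0.18, adjusted p = 6.24e-13) in the second experiment's wild-type cells. Dusp6, a phosphatase that acts on the kinase ERK, fell by 2.64 (SE 0.22, adjusted p = 2.794e-11) with P3C. When HDL came before CpG in labelled Atf3-deficient cells, Ccnd1 fell by 2.49 (SE 0.18, adjusted p = 1.584e-11) from CpG alone.

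Of 12 listed myeloid transcription factors, 11 were tested in the second experiment, and in wild-type cells 4 rose and 3 fell with CpG, beside 20.3% and 25.4% of all probes. Ets2, a target of growth factor signalling in macrophages, rose by 3.16 (SE 0.16, adjusted p = 2.218e-16) with CpG and by 3.03 (SE 0.16, adjusted p = 7.036e-16) with P3C. Gfi1, a repressor needed for granulocyte development, was not above background in wild-type control cells and rose by 3.20 (SE 0.17, adjusted p = 1.185e-15) with CpG, at least 8.01-fold. Gfi1 rose with CpG in labelled Atf3-deficient cells by 4.91 (SE 0.17, adjusted p = 1.408e-19), at least 21.1-fold. Under HDL with CpG, Egr1 was higher under the deficiency label by 1.58 (SE 0.22, adjusted p = 5.272e-06) and Gfi1 by 1.36 (SE 0.17, adjusted p = 1.064e-06).

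Over the 36 arrays of the second experiment, which share treatments and genotype labels, genes were ranked by Pearson correlation with each member. Other members and clone-type or predicted-gene symbols (such as those ending in Rik) were left out. Each gene was read by its brightest tested probe. The genes ranked highest were Dnaja2 (0.913), Gca (0.907) and Kpna3 (0.888) for Csf1, and Mgarp (0.868), Trem3 (0.843) and Trem1 (0.805) for Csf2. For the receptors they were Copz2 (0.878), Rnf187 (0.845) and Heatr5a (0.836) for Csf1r, Mgst3 (0.825), Steap3 (0.815) and Prc1 (0.809) for Csf2ra, and Tagln2 (0.825), Tmem63b (0.806) and Sestd1 (0.795) for Csf2rb. For Csf3r, by probe ILMN_1255648, they were Marchf1 (0.897), Dcun1d3 (0.886) and Lyrm1 (0.885). Between members, Csf2ra and this Csf3r probe correlated at -0.653.

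In the injured arteries 4 arrays stood apart. Wild-type HDL replicates 1 and 3 had 9266 and 11094 detected probes, against 12503 to 15397 on the other 10 arrays. Wild-type PBS replicate 3 carried Erdr1 at 4.48, not detected, where the other wild-type arrays lay at 9.49 to 10.92. Labelled Atf3-deficient HDL replicate 3 carried it at 10.33, where the others of that label lay at or below 4.65 and were not detected. These 2 arrays therefore had the Erdr1 level of the other label. In whole arteries, fewer cells of a type and less RNA per cell cannot be told apart.

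Csf1r, Csf2ra and Csf3r were detected in the arteries, and the largest differences were between HDL and PBS in wild-type tissue. Csf1r probe ILMN_2710819 read 6.63, 7.03 and 8.85 with PBS and 8.26, 9.84 and 10.19 with HDL, a difference of 1.93 (95% interval 0.26 to 3.60, adjusted p = 0.1933). Csf2ra read 7.57, 8.20 and 9.23 with PBS and 8.78, 10.22 and 10.78 with HDL, a difference of 1.59 (95% interval -0.01 to 3.20, adjusted p = 0.2245). For both probes the highest PBS array overlapped the lowest HDL array. Csf3r probe ILMN_1255648 read 7.33, 9.28 and 9.80 with PBS and 9.31, 10.03 and 10.43 with HDL, a difference of 1.12 (adjusted p = 0.2769).

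No member passed in any of the 5 artery comparisons, in which 0% of the 15868 probes tested passed in limma. At an unadjusted p below 0.05 there were 4 of 10 member probes for HDL in wild-type arteries. The members' median there was 1.14 beside -0.09 for all probes. For the label difference under HDL there were 2 at that unadjusted p. There were 0 for HDL under the deficiency label, for the label difference with PBS and for the label difference in the HDL effect. The share of all probes at an unadjusted p is not given, so these counts cannot be set against the 0% that passed. Without the 2 arrays with the fewest detected probes, which left 1 wild-type HDL array assumed to vary like the others, the differences were 0.76 for Csf1r ILMN_2710819 and 0.45 for Csf2ra, but 1.23 for Csf3r ILMN_1255648. Without the 2 arrays with the Erdr1 level of the other label they were 1.69, 1.21 and 0.39. The summed signal of the macrophage markers was 10230 to 34000 with PBS and 21670 to 40590 with HDL in wild-type arteries. Other sums moved in the same comparison. Smooth muscle genes summed to 21430 to 46540 (median 35900) with PBS and 4266 to 35550 (median 5991) with HDL, fibroblast genes to 4596 to 9457 and 485.7 to 5677, and neutrophil genes to 2795 to 12900 (median 8584) and 2963 to 18010 (median 17460). The part of these sums in the differences was not tested.

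**Figure D5:**
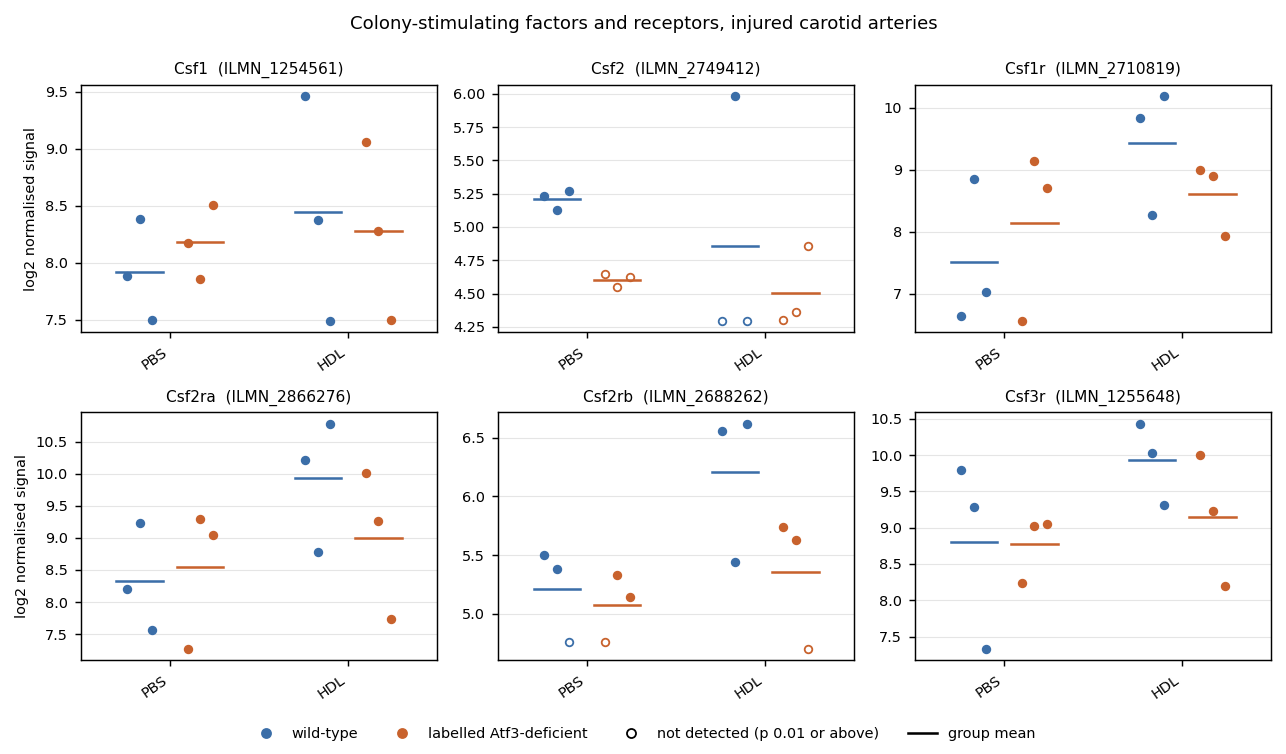
Log2 normalised signal of 1 probe for each of 6 members in injured carotid arteries given PBS or HDL, with wild-type samples in blue and samples labelled Atf3-deficient in orange. Each point is 1 array (open where not detected) and each bar a group mean of 3. Csf2 was detected on 4 arrays, all labelled wild-type, of which 1 (PBS replicate 3) had the Erdr1 level of the other label. Csf1r spreads from 6.63 to 8.85 in the wild-type PBS arteries alone.

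Csf2 was detected in all 3 wild-type PBS arteries (5.13, 5.23 and 5.27) and in 1 wild-type HDL artery (5.99, against 4.29 and 4.29 on the 2 arrays with the fewest detected probes). It was not above background in either labelled Atf3-deficient group (4.30 to 4.86). The wild-type PBS and the labelled Atf3-deficient HDL group each held 1 array with the Erdr1 level of the other label. The label difference with PBS was -0.61 (adjusted p = 1), at least 1.06-fold lower, and did not pass. Csf1 was detected in all 12 arteries, between 7.49 and 9.47, and HDL gave 0.52 (95% interval -0.57 to 1.62) in wild-type and 0.10 (95% interval -0.99 to 1.19) in labelled Atf3-deficient arteries. In labelled Atf3-deficient arteries HDL gave 0.47 (95% interval -1.20 to 2.14) for Csf1r ILMN_2710819 and 0.46 (95% interval -1.14 to 2.07) for Csf2ra, intervals that leave room for changes of either sign.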

How the data were processed

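The authors deposited, per the file headers, 1 signal intensity and 1 detection p-value per probe and array, not normalised, for 2 macrophage experiments and 1 artery experiment. They also deposited normalised values, read as intensity for the macrophages (array medians of 96.5 and 113.9) and as log2 for the arteries, per the file headers and the values, which served as an alternative. Partek is named in the submitters' processing notes. Other upstream steps are not given in the sources used here. Samples were grouped by their labels. Of the 45281 probes, 34885 have 1 gene symbol, 18 several and 10378 none, and only the first were named.

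Each experiment was processed separately in R 4.3.3 with limma 3.58.1: neqc (normexp background from the detection p-values, offset 16, quantile normalisation, log2), a filter keeping probes with a detection p-value under 0.01 on at least 3 arrays (15917, 16487 and 15868 probes), then lmFit with 1 mean per group, contrasts and eBayes on 8, 24 and 8 residual degrees of freedom. There were 36 contrasts, each Benjamini-Hochberg adjusted over all probes tested. The procedure was tested on simulated data. The 12 arrays of the first experiment lay on 3 chips, the 36 of the second on 6 and the 12 of the artery experiment on 2; chip was tried as a fixed and a random effect.

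Named genes were every member probe, Atf3 for the label, Erdr1 for arrays that stood apart, the 3 genes most correlated with each member, and, from the pathway lists, up to 4 genes with the largest change among those that passed in a comparison described. Lists covered other ligands and receptor chains, receptor signalling, feedback genes, myeloid transcription factors and shedding proteases, with markers of 10 cell types. Csf2rb2 was named as the paralog of a member. Members and lists were chosen with earlier results of these data known. Promoters came from RefSeq (GRCm38.p6). Figures were drawn with matplotlib 3.10.9 under Python 3.11.15. Protein sequences were not used here.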

Additional observations from a re-analysis of the deposited data

Results flagged for a closer look

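The genotype labels differed in what HDL did to Csf2 under each Toll-like receptor ligand. Under CpG the HDL step of Csf2 was larger by 1.29 (adjusted p = 0.02347, limma) in cells labelled Atf3-deficient, and all 3 labelled Atf3-deficient arrays given HDL with CpG lay above all 3 given CpG alone. Under P3C it was larger by 1.49 (adjusted p = 0.009441, limma), and the wild-type arrays given HDL with P3C all lay below those given P3C alone. In the wild-type groups the probe was detected on 1 of 3 arrays at most, so both values set a measured signal against groups at or near background. The probe met the detection filter only through the labelled Atf3-deficient groups given HDL and a ligand.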

How the results depend on the processing

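Counts below are of member probes that passed (limma, adjusted p below 0.05), and the cause of each shift was not tested. The count for the first experiment's CpG change was 4 and became 2 with 1 probe per gene, where fewer probes were counted. HDL before CpG in that experiment went from 0 to 1 with median scaling, chip as a fixed effect, only the groups compared, or without the array with the fewest detected probes, and the HDL change of the CpG response from 0 to 1 with chip as a fixed or random effect. In wild-type cells of the other macrophage experiment, P3C went from 6 to 2 with median scaling, HDL before CpG from 0 to 1 with no detection filter or without the arrays with the fewest detected probes, and HDL before P3C from 1 to 0 with no normexp correction, median scaling, the deposited normalised values or no detection filter. In labelled Atf3-deficient cells, CpG went from 6 to 3 and P3C from 2 to 1 with 1 probe per gene, and P3C to 4 with only its groups. CpG against P3C went from 1 to 2 with no normexp correction or the deposited values, to 3 without the arrays with the fewest detected probes, and to 0 with the other settings, chip as a random effect excepted. HDL alone went from 2 to 0 with median scaling and to 1 with every other setting except only the groups compared and omission of the arrays with the fewest detected probes. HDL before CpG went from 1 to 2 without those arrays, HDL before P3C from 2 to 1 with median scaling, no filter or only the groups, the HDL change of the CpG response from 1 to 2 with chip fixed or without those arrays, and that of the P3C response from 1 to 0 with no normexp correction, median scaling, deposited values or no filter and to 2 with chip fixed. The label difference in control cells went from 1 to 0 with no filter, to 2 with median scaling, 1 probe per gene or only the groups, and to 3 without the arrays with the fewest detected probes. Under CpG it went from 2 to 1 (median scaling, 1 probe per gene) or 0 (only the groups, or without those arrays), under P3C from 1 to 0 (chip fixed) or 2 (no normexp, deposited values, chip random, only the groups, or without those arrays), and under HDL from 1 to 0 (median scaling, only the groups) or 2 (chip fixed or random). Under HDL with CpG it went from 4 to 1 (median scaling, no filter) or 2 (chip fixed, only the groups), and under HDL with P3C from 3 to 1 with median scaling. The label difference in the CpG change went from 0 to 1 with 1 probe per gene or without the arrays with the fewest detected probes, that in the P3C change from 0 to 1 without those arrays, that in the HDL step under CpG from 1 to 0 (median scaling, chip fixed, only the groups, or without those arrays), and that under P3C from 1 to 0 (median scaling, only the groups). With 1 array left out at a time, the counts ran from 0 to 1 for HDL in the first experiment; in wild-type cells from 4 to 7 for CpG, 3 to 6 for P3C, 0 to 1 for CpG against P3C, HDL before CpG and HDL before P3C; and under the deficiency label from 5 to 7 for CpG, 2 to 3 for P3C, 0 to 1 for CpG against P3C and the HDL change of the P3C response, and 1 to 2 for HDL, HDL before CpG, HDL before P3C and the HDL change of the CpG response. For the label differences they ran from 0 to 2 (control, P3C, HDL), 0 to 3 (CpG), 1 to 3 (HDL with CpG) and 1 to 2 (HDL with P3C), and from 0 to 1 for the differences in the CpG change and in the HDL step under CpG. In wild-type arteries given HDL they ran from 0 to 4, the 4 without wild-type HDL replicate 2. Within chips, 1 result changed sign, Csf3r ILMN_2707409 with CpG in wild-type cells, -0.18 on chip 1. No paired analysis was possible because the labels carry no replicate numbers. Settings without named arrays were chosen after seeing the data, single omissions excepted.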
